A study of Mus musculus with 10 samples.

Results

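The genes restricted to mature OHCs were 30 of the 34590 genes listed in the count files, each far higher in the OHCs (P22) than in the 4 other handpicked cochlear cell types profiled. They were chosen by their own readout. A gene had to reach 10 CPM (its count divided by the sum of all gene counts of the library, on the usual CPM scale) in both OHC (P22) libraries, and the lower of these 2 values had to be at least 5 times the highest CPM in the 8 other libraries. Of the 5180 genes with at least 10 CPM in both OHC (P22) libraries, 0.579% were members. Since the OHC (P22) values chose the members, every comparison of OHCs (P22) with another cell type is given below as a description, with no test. The same rule turned on the other cell types found 36 genes for SCs, 145 for cHCs, 28 for OHCs (P7) and 58 for IHCs.

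Each cell type had 2 libraries, made from fluorescent cells picked by hand from mouse cochleae. SCs (replicate 12 at P27 and replicate 11 at P26) carried Fgfr3iCreER+ and Rosa26-CAG-loxP-stop-loxP-tdTomato+, so that the reporter is switched on in supporting cells that express Fgfr3. The cHCs (replicates 13 and 16, P33) carried in addition Atoh1-HA+ and alpha9 AChR-EGFP+, and are supporting cells in which Atoh1 was ectopically expressed and which had switched on a hair cell reporter. Both received tamoxifen as juveniles. The OHCs (P22) were from prestin-YFP YFP/+ knock-in mice, in which the OHC motor protein carries a fluorescent tag, and the labels read as P21 for one library and P22 for the other. These ages name the 2 libraries in what follows, as OHC (P22) replicate P21 and OHC (P22) replicate P22. The harvest ages in the methods of the study are 1 day later than the labels for both. The labels give the same genotype for the OHCs (P7) (replicates 15 and 14), for which the methods of the study name another mouse line with a tamoxifen-inducible Cre. The IHCs (replicates P74 and P75, named by age) were from Pval-Cre+ mice with the same tdTomato reporter. The OHCs (P22), OHCs (P7) and IHCs therefore differed from the SCs and cHCs in age and mouse line, and the tamoxifen schedule differed too or was absent, and these cannot be told apart from the cell type. The IHCs also differed from the OHCs (P22) in age and mouse line. The OHCs (P7) differed from the OHCs (P22) in age and, by the methods of the study, in mouse line and tamoxifen. These differences cannot be told apart from the cell type either. The cHCs also differed from the SCs in age and in the added transgenes, which cannot be told apart from conversion. The study calls the pairs biological duplicates, but the number of animals behind each library is not given in the sources used here, and the p values measure the spread between these libraries.

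OHCs amplify sound by changing length with voltage, a motion driven by prestin, the product of Slc26a5. They mature during the first postnatal weeks, when prestin accumulates and efferent cholinergic terminals from the brainstem settle on the cell base. IHCs are the true sensory cells and pass the signal to the auditory nerve, and SCs surround both and can be turned toward a hair cell fate by Atoh1.

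Between 15016129 and 40518766 counts per library fell on genes, so that a floor of 3 counts corresponded to between 0.0740 and 0.200 CPM, a floor that covers counting error only. Reads that overlapped no counted feature made up 62.3% and 60.3% of these and the counted reads together in the OHC (P22) libraries. In the 8 others the share was 32.2% to 49.2%. Whether such reads lay in introns or outside genes was not tested. The part of this share in the choice of members was not tested. In 4 of the 10 sample records the attached file was that of another library, all of them among SCs, cHCs and OHCs (P7). Each was reassigned before the comparisons by matching its counts to the expression columns supplied with the study. Levels given for SCs, cHCs and OHCs (P7) rest on this reassignment, and membership does not, since the 8 other libraries enter the rule together.

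The identity of the OHC (P22) libraries was checked against 19 measured OHC genes, of which 16 reached 10 CPM in both. Only 9 of the 19 were higher in both OHC (P22) libraries than in every other library. Among the rest, Chrna9 was at 236 and 149 CPM, against 802 and 769 CPM in cHCs. The cHCs were picked by a reporter driven by the Chrna9 promoter, so this gene took part in their choice. Ikzf2 was at 292 and 546 CPM, against 459 and 473 CPM in OHCs (P7). Tectb was at 0.154 and 0.281 CPM, against 619 and 1581 CPM in OHCs (P7). Slc26a5 itself stood at 2206 CPM in replicate P21 and 3055 CPM in replicate P22, against 1052 and 1074 CPM in OHCs (P7), 27.8 to 117 CPM in cHCs and at most 1.43 CPM in SCs and IHCs. Slc26a5 was therefore not a member, with a ratio of 2.05, and neither were Ocm (1.31), Chrna10 (1.79) or Strc (3.01). Of these 19 OHC genes, Lbh alone met the rule. Genes of other cells were low in the OHCs (P22). The 17 SC genes summed to 226 and 390.8 CPM, against 9701 and 12825 CPM in SCs, and the defining SC gene Sox2 was at 0 in both. Immune cell genes summed to 0.103 and 0.608 CPM, with Cd79a and C1qa at 0, fibroblast and bone cell genes to 14.1 and 22.9 CPM, with Col3a1 and Dcn at 0, and endothelial genes to 0.308 and 13.6 CPM, against at most 2.60 CPM elsewhere. Nearly all of the higher endothelial sum was Tek, at 13.4 CPM, and Cdh5 was at 0 in both. IHC genes summed to 258 and 639 CPM, against 9653 and 10168 CPM in IHCs, and spiral ganglion neuron genes to 235 and 320 CPM, against 235 to 927 CPM in cHCs, OHCs (P7) and IHCs. Stria and Reissner membrane genes summed to 16.9 and 3.88 CPM, within the 1.27 to 806 CPM of the other libraries. Stress genes summed to 100.1 and 190 CPM, below the 302 to 6849 CPM of the others. Blood cell genes summed to 16.6 and 7.96 CPM, above the 0.266 to 2.59 CPM of SCs, cHCs and OHCs (P7) and below the 30.8 and 47.7 CPM of IHCs. Most of this was Alas2, at 16.6 and 6.37 CPM, while Hba-a1 was at 0 and 0.655 CPM. Schwann and satellite cell genes summed to 49.2 and 26.96 CPM, against 14.7 to 175 CPM elsewhere. Their part in the members was not tested.

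The ratio of the lower OHC (P22) value to the highest other value ran from 5.03 to 516, with a median of 8.26. For 19 members it lay between 5 and 10, for 5 between 10 and 50, and for 6 above 50. The 5 members just inside the threshold were Slc16a7 (5.03), Mia2 (5.34), Sh3gl3 (5.45), Gm13844 (5.58) and Gm15478 (5.67), and the 5 genes just outside it were Gm17392 (4.78), Mmd (4.55), Mpped1 (4.53), AC126942.1 (4.43) and Gm16253 (4.39). Near the minimum of 10 CPM, Gm13268 was inside with a lower value of 11.0 CPM and Gm6611 outside with 9.36 CPM. With CPM scaled by TMM factors, Gm13268, Mia2 and Slc16a7 no longer met the rule. Of the 30 members, 24 reached 1 CPM and 12 reached 10 CPM in at least 1 other library, while 6 stayed below 1 CPM in all 8.

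**Figure D1:**
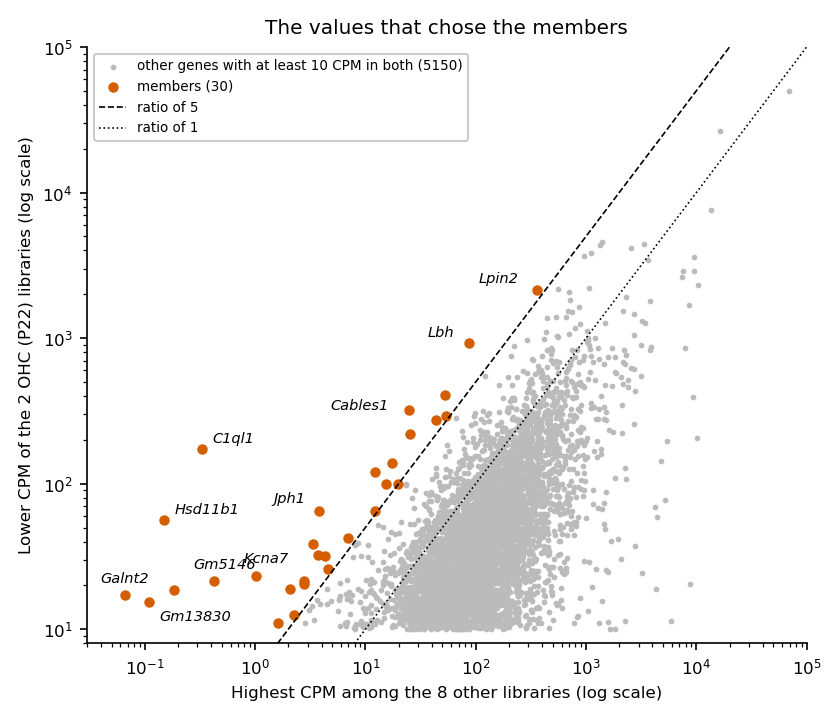
Each point is a gene with at least 10 CPM in both OHC (P22) libraries, with the highest CPM of the 8 other libraries on the x axis and the lower OHC (P22) CPM on the y axis, both on log scales. The 30 members (orange) lie above the dashed line that marks the ratio of 5, and C1ql1, with a ratio of 516, lies farthest from it.

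The median fold between the 2 OHC (P22) libraries was 1.35 for the members and 1.78 for the 5180 genes. The rule used the lower of these 2 values, which favours genes that agree, so the smaller fold of the members is no support for them. The TMM factors were 0.583 for replicate P21 and 1.11 for replicate P22, and the CPM used here are not scaled by them. Among the members, 18 were within 1.5 times and 5 differed by more than 2 times. OHC (P22) replicate P21 alone would have chosen 171 genes and replicate P22 alone 103 genes, and the 30 members are those that both chose. Among the genes chosen on 1 library, 39 of 171 and 52 of 103 were below 1 CPM in the other, and 10 and 28 of them had no count there. The need for both libraries thus removed most of the genes that either one would have named.

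**Figure D2:**
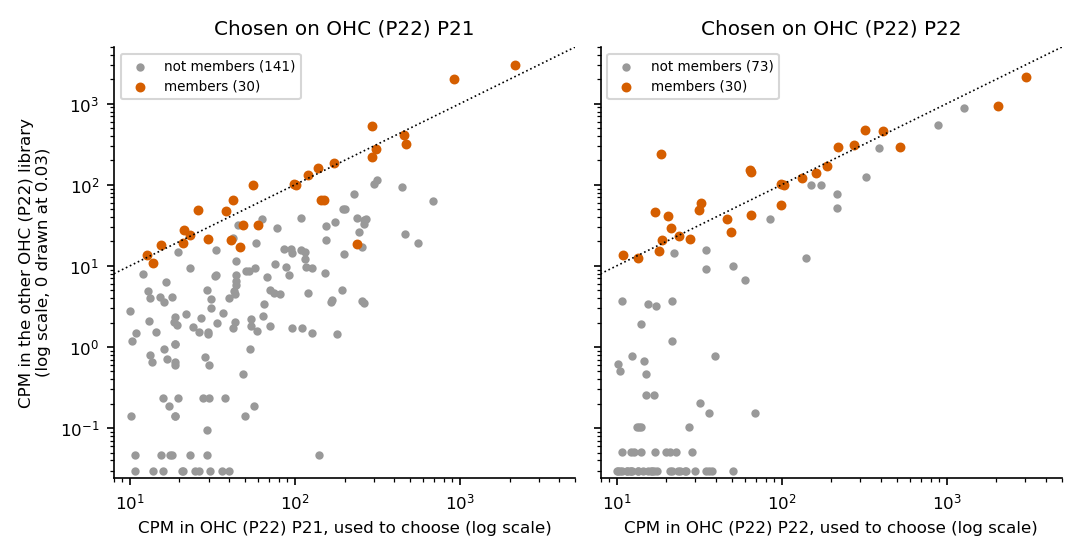
Genes chosen on OHC (P22) replicate P21 alone (left, 171 genes) or replicate P22 alone (right, 103 genes), with CPM in the choosing library on the x axis and CPM in the other OHC (P22) library on the y axis, on log scales with 0 drawn at 0.03 CPM. The 30 members (orange) lie close to the dotted line of equal values, apart from Serpina1f (237 and 18.5 CPM), and many of the other genes lie at or near 0 in the library that did not choose them.

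Per kilobase of exon, so that genes can be compared, the highest lower OHC (P22) levels were those of Lbh (288 CPM per kb), the pseudogene Gm12748 (238 CPM per kb), Sh3gl3 (183 CPM per kb), Lpin2 (176 CPM per kb), Crip3 (145 CPM per kb) and C1ql1 (117 CPM per kb). Galnt2 had the lowest, at 4.01 CPM per kb. Of its 4.282 kb of exon, 3854 bases are shared with Gm20388 on the same strand, and reads there may not have been counted, so its value may be too low. In the plot of all members by library, the right-hand pair of columns is bright for every gene, and among the other columns the OHCs (P7) carry the most signal. The members' CPM summed to 6560 and 8152 in OHCs (P22), to 568 and 598 in OHCs (P7), and to between 179 and 287 in SCs, cHCs and IHCs.

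**Figure D3:**
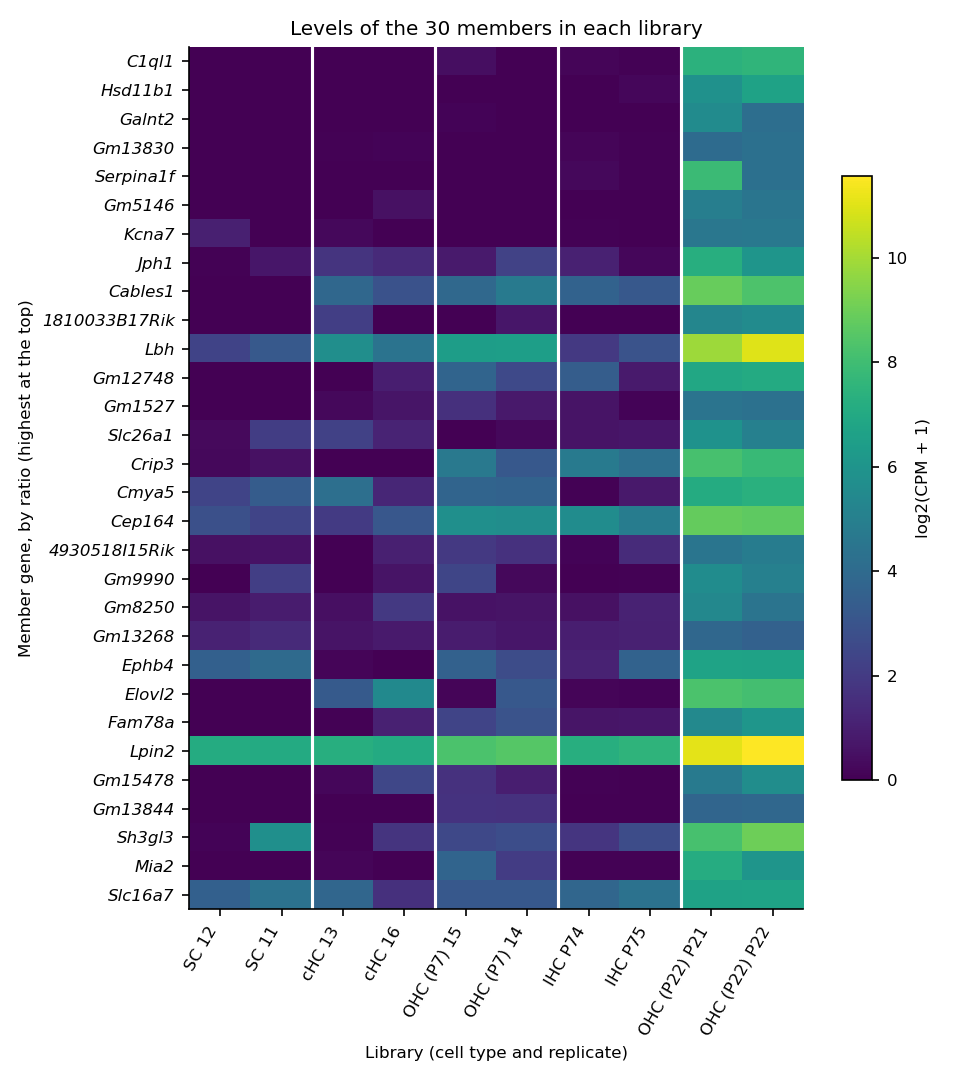
Level of the 30 members as log2(CPM + 1), with 1 row per gene ordered by ratio from C1ql1 (516) at the top to Slc16a7 (5.03) at the bottom, and 1 column per library, labelled by cell type and replicate. The top 6 rows are dark in all 8 other libraries, and Lpin2, Lbh and Cep164 are visible in all 10.

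2 members encode secreted proteins. C1ql1 (chr11:102800578-102808002, mm9) encodes a C1q-like protein that organizes synapses. Its level was 172 CPM in OHC (P22) replicate P21 and 188 CPM in replicate P22. Elsewhere it had 9 counts in all, 5 of them in OHC (P7) replicate 15 (0.333 CPM), and none in SCs or cHCs. C1ql2 and C1ql4, close relatives looked up after the members' values were known, had no counts in any library, and C1ql3 reached 57.9 CPM in IHC replicate P75 but at most 0.103 CPM in OHCs (P22). Serpina1f (chr12:104926254-104933739), a serpin of the alpha-1-antitrypsin cluster, was the member whose OHC (P22) libraries agreed least. It stood at 237 CPM in replicate P21 and 18.5 CPM in replicate P22, a fold of 12.8, and at most at 0.183 CPM in the others. Both libraries lie far above the other cell types, but the level in OHCs (P22) is known only within that fold. The other 5 Serpina1 genes were below 1 CPM in both OHC (P22) libraries.

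4 members encode enzymes of steroid, lipid or glycan metabolism. Hsd11b1 (chr1:195047824-195090248) regenerates active glucocorticoid from its inert form. Its level was 56.1 and 99.1 CPM in OHCs (P22), and outside them the only counts were 4 in IHC replicate P75 (0.151 CPM). Hsd11b2, which runs the opposite reaction, was not restricted, with 40.7 and 3.93 CPM in OHCs (P22) and 75.7 CPM in cHC replicate 16. The promoter window of Hsd11b1 from RefSeq (GRCm38.p6, chr1:193242311-193242610, minus strand, 250 bases before to 50 after the start) is shown because this gene had the highest ratio, 372, of the members with a window. Capitals mark the RFX core GTTGCC.

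Hsd11b1: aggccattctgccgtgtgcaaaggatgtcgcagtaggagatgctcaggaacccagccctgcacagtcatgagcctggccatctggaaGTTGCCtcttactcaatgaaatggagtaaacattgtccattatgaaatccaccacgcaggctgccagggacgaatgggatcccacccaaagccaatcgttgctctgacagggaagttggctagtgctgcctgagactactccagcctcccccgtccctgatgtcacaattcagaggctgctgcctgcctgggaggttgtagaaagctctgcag

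Lpin2 (chr17:71531900-71599157) encodes a phosphatidate phosphatase that makes diacylglycerol for lipid synthesis. It was above 100 CPM in all 10 libraries. It stood at 2155 and 3033 CPM in OHCs (P22), 310.0 and 362 CPM in OHCs (P7), and 132 to 182 CPM in the other 6 libraries, so that its ratio of 5.95 reflects a raised level and not absence elsewhere. The OHC (P7) values did not overlap those of SCs, cHCs and IHCs. Its relatives Lpin1 and Lpin3 were below 10 CPM in OHCs (P22). Elovl2 (chr13:41277864-41315774) elongates long polyunsaturated fatty acids. It was at 309 and 275 CPM in OHCs (P22), 8.72 and 43.6 CPM in cHCs, 0.133 and 7.98 CPM in OHCs (P7), and at most 0.110 CPM in SCs and IHCs. None of the 6 other Elovl genes reached 10 CPM in both OHC (P22) libraries. Galnt2 (chr8:126755291-126869624), which starts mucin-type O-glycosylation, had 910 and 367 counts in OHCs (P22), or 46.7 and 17.2 CPM, and a single count in the 8 other libraries. Against the floor of 3 counts in that library its ratio is 86.0. Galnt2 shares 3854 exon bases with Gm20388, listed at 0 throughout, and reads on shared bases may not have been assigned to either gene.

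Transport and membrane genes gave another 4 members. Kcna7 (chr7:52661330-52666752) encodes the voltage-gated potassium channel Kv1.7. It was low but even in OHCs (P22), at 23.3 and 23.9 CPM. Elsewhere it reached 1.02 CPM in SC replicate 12 and at most 0.204 CPM in the other 7 libraries. Of the 7 other Kcna genes, Kcna10 and Kcna2 reached 10 CPM in both OHC (P22) libraries, and Kcna10 was higher in IHCs (790.3 and 705 CPM) than in OHCs (P22) (292 and 333 CPM). The window of Kcna7 (GRCm38.p6, chr7:45405710-45406009, plus strand) is shown as that of a channel gene with a ratio of 22.9, and it held none of the 6 motifs searched.

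Kcna7: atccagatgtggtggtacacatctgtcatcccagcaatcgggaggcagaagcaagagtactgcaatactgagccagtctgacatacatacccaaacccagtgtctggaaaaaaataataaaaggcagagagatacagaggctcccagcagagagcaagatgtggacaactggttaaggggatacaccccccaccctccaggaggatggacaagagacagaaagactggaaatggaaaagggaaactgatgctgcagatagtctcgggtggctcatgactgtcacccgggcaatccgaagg

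Slc26a1 (chr5:109098897-109104588), a sulfate transporter of the prestin family, was at 59.4 and 32.3 CPM in OHCs (P22) and at most 3.72 CPM elsewhere. In OHCs (P7), where Slc26a5 was at 1052 and 1074 CPM, Slc26a1 had 0 and 7 counts. No Slc26 gene other than Slc26a1 and Slc26a5 reached 10 CPM in both OHC (P22) libraries. The gene lies inside Idua on the opposite strand and shares 141 exon bases with it, and Idua was at 21.6 and 11.8 CPM in OHCs (P22) and 7.36 to 82.5 CPM elsewhere. Slc16a7 (chr10:124663520-124766019), the monocarboxylate transporter MCT2, was at 99.4 and 103 CPM in OHCs (P22) and between 2.05 and 19.8 CPM in all other libraries, the weakest restriction of the set. Jph1 (chr1:16987545-17087879) encodes a junctophilin, a protein that ties the endoplasmic reticulum to the plasma membrane. It was at 151 and 64.4 CPM in OHCs (P22), at 0.0443 to 3.83 CPM in the others, and no other junctophilin gene reached 10 CPM in either OHC (P22) library.

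The largest named group held 9 members, with regulatory, signalling and structural proteins and Fam78a. Lbh (chr17:73267645-73291282) encodes a transcription regulator. It stood at 925 and 2038 CPM in OHCs (P22), 86.2 and 87.4 CPM in OHCs (P7), 50.8 and 20.3 CPM in cHCs, and 2.78 to 8.39 CPM in SCs and IHCs. The OHC (P7) libraries lay close together and above the other 6. Its window (GRCm38.p6, chr17:72918055-72918354, plus strand) is shown because Lbh had the highest level per kilobase, and capitals mark a TATAAA box.

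Lbh: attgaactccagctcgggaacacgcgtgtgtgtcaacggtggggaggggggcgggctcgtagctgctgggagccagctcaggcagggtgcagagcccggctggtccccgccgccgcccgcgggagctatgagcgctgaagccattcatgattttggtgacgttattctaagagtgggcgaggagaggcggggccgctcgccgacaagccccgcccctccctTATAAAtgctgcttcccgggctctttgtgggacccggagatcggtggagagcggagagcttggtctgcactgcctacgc

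Cables1 (chr18:11997729-12104136), an adaptor of Cdk5 and Abl signalling, was at 470.0 and 322 CPM in OHCs (P22). It was at 13.9 and 25.1 CPM in OHCs (P7), 13.6 and 6.51 CPM in cHCs, 11.5 and 8.22 CPM in IHCs, and had no count in either SC library. All 8 hair cell libraries, those of cHCs included, thus carried it and the SCs did not. Cables1 shares 118 exon bases with Gm6277, a lincRNA on the opposite strand, which was at most at 0.0885 CPM in SCs, at 3.57 to 91.6 CPM in cHCs, OHCs (P7) and IHCs, and at 5.18 and 76.1 CPM in OHCs (P22). The part of these shared bases in the counts of Cables1 was not tested. Crip3 (chr17:46565875-46568725), a LIM domain protein, was at 292 and 221 CPM in OHCs (P22), 24.8 and 8.17 CPM in OHCs (P7), 25.6 and 17.4 CPM in IHCs, 0.177 and 0.420 CPM in SCs, and 0 in both cHC libraries. Cep164 (chr9:45575029-45636774), a distal appendage protein of the mother centriole needed to dock cilia, was at 458 and 409 CPM in OHCs (P22), 52.5 and 49.9 CPM in OHCs (P7), 48.3 and 28.3 CPM in IHCs, and 2.96 to 7.69 CPM in SCs and cHCs.

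Ephb4 (chr5:137791337-137819897), a receptor for ephrin-B2, was even in OHCs (P22), at 102 and 99.1 CPM. It was at 10.8 and 15.2 CPM in SCs but only at 0.102 and 0.0302 CPM in cHCs, and in IHCs it differed widely between the replicates, at 1.14 and 11.3 CPM. Sh3gl3 (chr7:89319728-89455923), endophilin A3, was at 293 and 524 CPM in OHCs (P22). Its ratio of 5.45 rests on SC replicate 11 alone, at 53.7 CPM, and without that library it would be 52.5. Mia2 (chr12:60196786-60210117), which takes part in the export of cargo from the endoplasmic reticulum, was at 144 and 65.1 CPM in OHCs (P22), 12.2 and 3.13 CPM in OHCs (P7), and at most 0.102 CPM in the other 6 libraries. Fam78a (chr2:31905575-31940377) was at 42.4 and 65.7 CPM in OHCs (P22), 4.13 and 6.88 CPM in OHCs (P7), and at most 1.12 CPM elsewhere. It shares 1169 exon bases with Gm16534 and 177 with Nup214. Cmya5 (chr13:93810668-93914679), a large protein known from muscle, was at 138 and 162 CPM in OHCs (P22). Its ratio of 7.90 rests on cHC replicate 13, at 17.5 CPM, and it was at 1.39 CPM in cHC replicate 16, 12.2 and 11.4 CPM in OHCs (P7) and at most 0.717 CPM in IHCs. The SC values, 4.20 and 9.23 CPM, lay between.

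The other 11 members carry predicted or clone names, 36.7% of the set against 7.99% of the 5180 genes. By the mm9 annotation, 6 of the 30 members (20%) were not protein coding, against 2.94% of the 5099 annotated genes with at least 10 CPM in both, and 9 (30%) lay inside another gene, against 3.53%. Their median exon length was 2.38 kb, against 4.59 kb. Reads of such genes can be hard to separate from those of a host or a copy, and the counting was not stated to use strand. Gm12748 (chr1:63718042-63718545) is a pseudogene inside Dytn, on the opposite strand. It was at 120 and 132 CPM in OHCs (P22), 12.3 and 4.85 CPM in OHCs (P7), and 9.67 and 0.792 CPM in IHCs. Dytn stood at 2185 and 2457 CPM in OHCs (P22), 553 and 460 CPM in OHCs (P7), 222 and 225 CPM in IHCs, and at most 0.266 CPM in SCs, and was in turn highest in the OHCs (P22). In cHCs, however, Dytn was at 88.9 and 49.7 CPM while Gm12748 was at 0 and 0.935 CPM. Gm15478 (chr5:68033640-68038015) lies inside Atp8a1, which was at 421 and 465 CPM in OHCs (P22) with a ratio of 1.30, while Gm15478 was at 25.97 and 49.2 CPM with a ratio of 5.67. Gm8250 (chr19:18655945-18656718), inside Ostf1, was at 40.8 and 20.6 CPM, and the best match of its exon among coding transcripts, Gm16477, was 94.6% identical over its whole length. Gm13268 (chr2:14548507-14548950), named here after its values were seen, lies inside Cacnb2 and matched Rpl26 with 98.2% identity over its whole length. Rpl26 was lower in OHCs (P22), at 16.3 and 70.9 CPM, than in SCs, at 192 and 293 CPM. Counts of Gm8250 and Gm13268 are uncertain for this reason. Gm9990 and Gm13830 matched 371 and 22 genes, the best match covering 7.62% and 4.96% of their exon. The part of these shorter matches in their counts was not tested.

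Gm13830 (chr5:115751129-115769217), a lincRNA, was at 15.3 and 18.1 CPM in OHCs (P22) and had 8 counts in the 8 others. Gm5146 (chr17:23688040-23690455) was at 29.7 and 21.4 CPM, with 14 counts outside OHCs (P22), all in cHC replicate 16. The gene 1810033B17Rik, Mcemp1 in RefSeq (chr8:3665762-3668905), was at 38.3 and 46.9 CPM in OHCs (P22), 3.36 CPM in cHC replicate 13 and 0.616 CPM in OHC (P7) replicate 14, and 0 in the other 6. Gm13844 (chr6:31322895-31333877) was at 12.6 and 13.5 CPM in OHCs (P22) and at 2.26 and 2.14 CPM in OHCs (P7), with no count in any SC, cHC or IHC library. Gm1527 (chr3:28791539-28825646) was at 21.1 and 18.9 CPM in OHCs (P22) and at 2.06 and 0.723 CPM in OHCs (P7). The 2 remaining members, Gm9990 and 4930518I15Rik, were at 21.4 to 48.6 CPM in OHCs (P22) and at most at 4.26 CPM elsewhere.

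Levels in the other cell types were not all alike. Of the 30 members, 14 had at least 1 CPM in both OHC (P7) libraries, 9 in both cHC libraries, 8 in both IHC libraries and 7 in both SC libraries, compared with 88.1% to 97.0% of the 5180 genes. The rule set the lower OHC (P22) value at least 5 times every other library, so this contrast was fixed in advance. The percentages below are capped by the same rule. The members without any count in either library of a type were 13 for SCs, 6 for cHCs, 4 for IHCs and 3 for OHCs (P7). The shares of the 5180 genes were 0.946%, 0.154%, 0.135% and 0.116%, in that order, and the rule favours genes that are low elsewhere. The OHC (P7) mean was 5.23% of the OHC (P22) mean for the median member, and the corresponding medians were 1.15% for cHCs, 0.503% for IHCs and 0.0746% for SCs. The members with an OHC (P7) mean of at least 10% of the OHC (P22) mean were Gm13844 (16.9%), Lpin2, Cep164 and Fam78a. In bulk libraries, fewer cells of a type that carry the RNA and less RNA per cell cannot be told apart.

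**Figure D4:**
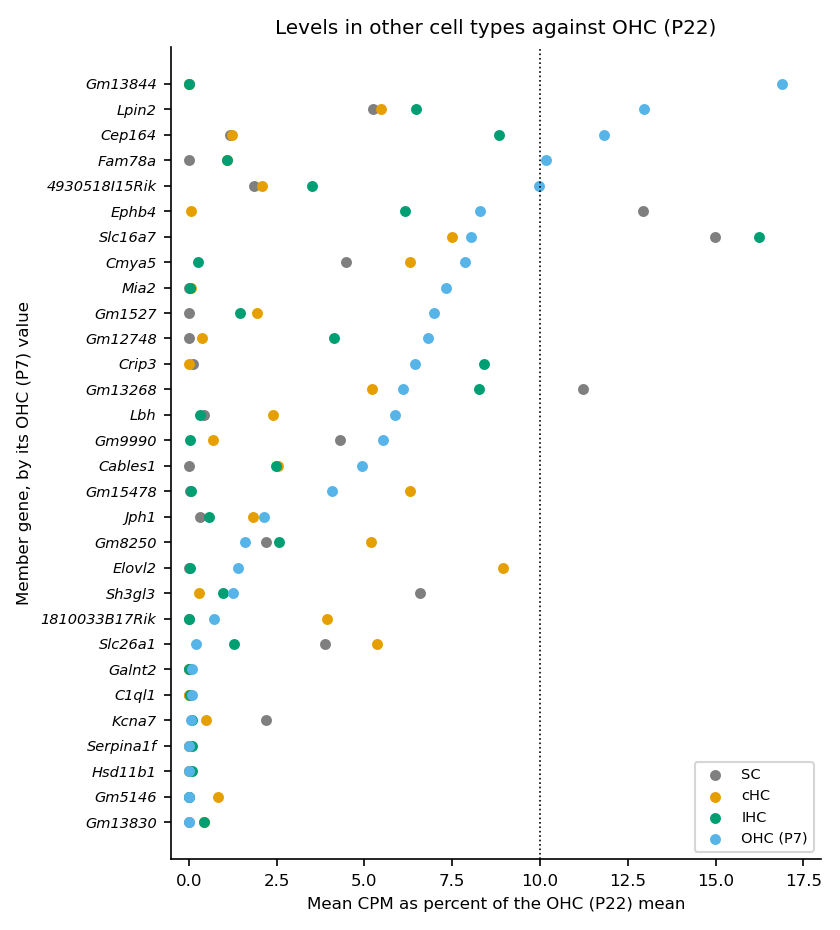
Mean CPM of the 2 libraries of SCs, cHCs, IHCs and OHCs (P7) as a percentage of the OHC (P22) mean, with 1 row per member ordered by its OHC (P7) value. OHCs (P7) reach at most 16.9% (Gm13844), IHCs at most 16.2% (Slc16a7), SCs at most 14.99% (Slc16a7) and cHCs at most 8.96% (Elovl2). The rule that chose the members caps these percentages.

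The order among the other cell types was not used by the rule, which took only their highest value. The highest other library was an OHC (P7) library for 14 members, a cHC library for 7, an SC library for 5 and an IHC library for 4. Both OHC (P7) libraries lay above the other 6 for 9 members, namely 4930518I15Rik, Cables1, Cep164, Fam78a, Gm13844, Gm1527, Lbh, Lpin2 and Mia2. Such a pattern was found in 6.09% of the 16891 genes tested and in 9.02% of the 5180 genes. The corresponding counts were 1 member for cHCs (Elovl2, 8.98% of genes tested), 1 for IHCs (Serpina1f, 8.33%) and 1 for SCs (Gm13268, 7.26%). For Serpina1f the pattern rests on 5 and 1 counts in IHCs, against 1 count in OHC (P7) replicate 14. Its value in IHC replicate P75, 0.0377 CPM, is under the floor of 3 counts there (0.113 CPM). For 12 of the 30 members, the 2 highest other libraries were of 1 cell type. The shares over all genes were not taken for this count or for the highest other library, so both are a description only.

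Differences between the cell types other than OHCs (P22) were tested with edgeR's quasi-likelihood test across all genes, with Benjamini and Hochberg adjusted p values and a threshold of 0.05. The comparisons of OHCs (P7), cHCs and IHCs with SCs share the 2 SC libraries. The spread was estimated from all 10 libraries, including the OHC (P22) pair whose agreement chose the members. In a fit of the 8 other libraries alone, 23 members could be tested and Cables1 was the only one that passed, in the comparisons of OHCs (P7), cHCs and IHCs with SCs. With the files as attached to the records, before the 4 were reassigned, 0 members passed in any of the 4 comparisons, so that each call below rests on that reassignment. The count filter was met by 7 members (C1ql1, Galnt2, Gm13830, Gm5146, Hsd11b1, Kcna7 and Serpina1f) only through the OHC (P22) libraries that chose them. Median fold changes are therefore given for the 23 others too, with members at 0 in 1 type set to their bound, taken against 3 counts in each library of that type, and those at or under this floor in both types set to 0. These medians are a description.

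Between OHCs (P7) and SCs, 6 members were higher in OHCs (P7) and none was lower, where 2.56% of genes tested were higher and 0.853% lower. Without an adjustment, 13 members had a p under 0.05, as did 18.9% of all genes. DESeq2 called 11 higher and 1 lower, where it called 8.82% of all genes higher and 7.01% lower. On simulated counts most DESeq2 calls were genes left unchanged, so its counts here and below are given for comparison only. The median fitted log2 fold change was 2.53 over the 30 members, 2.69 over the 23 with bounds and 0 over all genes. Cables1 had a mean of 19.5 ± 7.88 CPM (SD, n = 2) in OHCs (P7) and was at least 189-fold higher than in SCs, where it had no count (edgeR adjusted p = 0.000664). Lbh averaged 86.8 CPM in OHCs (P7) against 6.23 CPM in SCs, a log2 fold change of 3.74 ± 0.67 (SE, edgeR adjusted p = 0.0115), and Crip3 had means of 16.5 and 0.298 CPM, with a log2 fold change of 5.67 ± 0.99 (edgeR adjusted p = 0.0125). Mia2 was at least 74.1-fold higher (edgeR adjusted p = 0.0197) and Fam78a at least 53.3-fold higher (edgeR adjusted p = 0.0380), both against SC libraries without a count. Cep164 had means of 51.2 and 5.12 CPM and a log2 fold change of 3.29 ± 0.69 (edgeR adjusted p = 0.0253). The pseudogene Gm12748, at 12.3 and 4.85 CPM against no counts, had an adjusted p of 0.0505 and Elovl2 of 0.0534 in the edgeR fit.

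Of these 6 calls, that of Cables1 alone held under every library left out. With limma-voom, Crip3 (0.113) and Cep164 (0.139) did not pass, while Gm12748 and Gm13844 did. Without SC replicate 12 the adjusted p was 0.0503 for Lbh, 0.0559 for Crip3, 0.0542 for Mia2, 0.0776 for Cep164 and 0.113 for Fam78a, and Cables1 was the only member called in edgeR. Without SC replicate 11 it was 0.0662 for Mia2, 0.109 for Cep164 and 0.128 for Fam78a, leaving 3 calls. Cep164 was also lost without OHC (P7) replicate 14 (0.0600) or 15 (0.0580), Mia2 without OHC (P22) replicate P21 (0.0532), and Fam78a without OHC (P7) replicate 14 (0.0637), OHC (P22) replicate P21 (0.0585) or P22 (0.0530). These are adjusted p values, of the edgeR fit unless limma-voom is named.

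Between cHCs and SCs, which asks whether the members differ between the converted cells and supporting cells, 2 members were higher in cHCs and 1 was lower. Among all genes, 1.75% were higher and 0.0888% lower. At an unadjusted p under 0.05 there were 11 members, compared with 15% of all genes. DESeq2 called 6 higher and 3 lower, against 8.09% and 2.31% of all genes. Cables1, with no count in SCs, had a mean of 10.04 ± 4.98 CPM (SD, n = 2) in cHCs and was at least 97.1-fold higher (edgeR adjusted p = 0.00174). Elovl2 had 1618 counts in cHCs and 1 in SCs, a ratio of counts per library size of 1935 with an exact 95% counting interval of 347 to 76465 (edgeR adjusted p = 0.0283). The call was lost without SC replicate 11 (0.0890) or 12 (0.103). Ephb4 had a mean of 13.01 CPM in SCs and 0.0660 CPM in cHCs, where it had 3 counts in all (edgeR adjusted p = 0.0247). Its ratio of SCs to cHCs was 240.0, with a counting interval of 81.9 to 1166, and the call was lost without cHC replicate 13 (0.0610) or 16 (0.183). The median fitted log2 fold change was 0.05 over the 30 members, 0.11 over the 23 with bounds and 0.03 over all genes. C1ql1, Crip3, Galnt2, Gm13844, Hsd11b1 and Serpina1f had no count in either cHC library, a floor of at most 0.153 CPM.

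Between IHCs and SCs, 2 members were higher in IHCs and none was lower, against 2.23% and 0.420% of all genes. At an unadjusted p under 0.05 there were 7 members, against 17.4% of all genes, a share near that of the members. DESeq2 called 5 higher and 1 lower, against 8.06% and 5.46% of all genes. Cables1 was at least 95.2-fold higher (edgeR adjusted p = 0.00134). Crip3 had means of 21.5 CPM in IHCs and 0.298 CPM in SCs, a log2 fold change of 5.92 ± 1.001 (SE, edgeR adjusted p = 0.0119), and was lost without SC replicate 12 (0.0551) and with limma-voom (adjusted p = 0.0810). The median fitted log2 fold change was 0.12 over the 30 members, 0 over the 23 with bounds and 0 over all genes.

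Between OHCs (P7) and cHCs, 1 member was higher in OHCs (P7) and none was lower, where 0.219% of all genes were higher and 0.124% lower. At an unadjusted p under 0.05 there were 11 members, compared with 11.2% of all genes, and DESeq2 called 5 higher and 0 lower, against 2.18% and 4.4% of all genes. Crip3 had 678 counts in OHCs (P7) and none in cHCs, so that it was at least 136-fold higher (edgeR adjusted p = 0.0176). It held under every library left out, but not in the fit without OHCs (P22) (0.0975). The median fitted log2 fold change was 1.54 over the 30 members, 1.56 over the 23 with bounds and -0.09 over all genes.

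**Figure D5:**
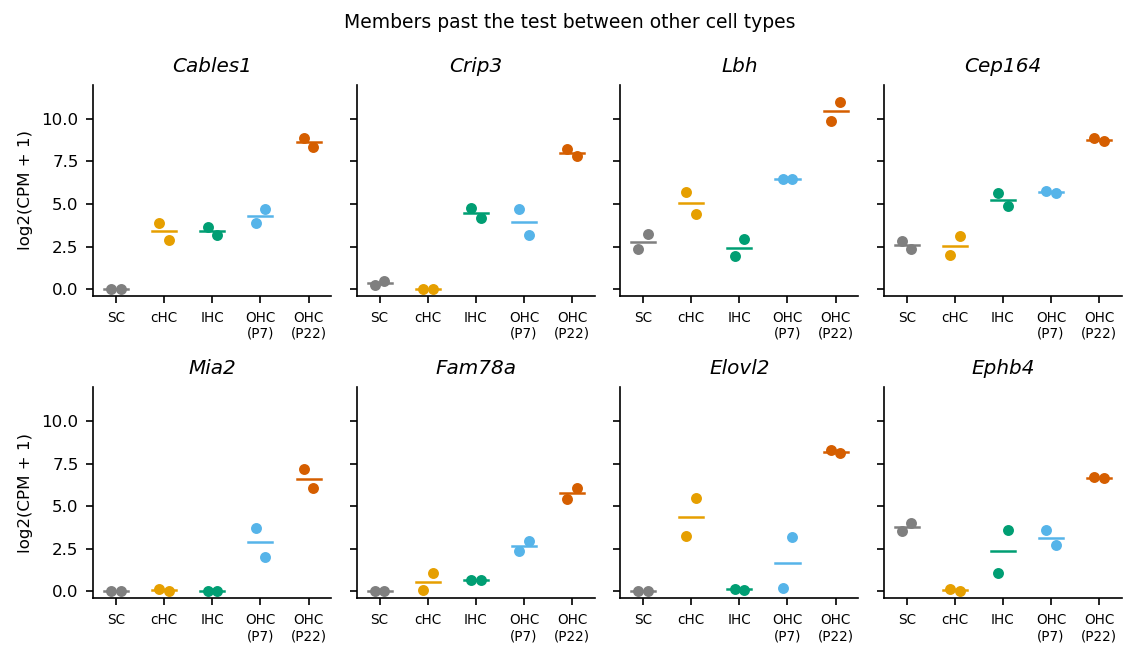
Levels as log2(CPM + 1) of the 8 members that passed the edgeR test in at least 1 comparison among SCs, cHCs, IHCs and OHCs (P7), with 1 point per library and a line at the mean of the 2 log values. OHCs (P22) are drawn for scale. They were in no comparison, but entered the estimate of the spread. Cables1 is absent from both SC libraries only, Crip3 is at 0 in both cHC libraries, and Elovl2 is higher in cHCs than in any other type except OHCs (P22).

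None of the 13 efferent synapse genes, 24 calcium genes, 16 potassium channel genes, 29 measured spectrin and cortical actin genes or 22 hair cell genes met the rule, although 6, 15, 7, 15 and 20 of them, in that order, reached 10 CPM in both OHC (P22) libraries. The member Kcna7 is a potassium channel gene that the list of 16 does not hold. As 0.579% of the 5180 genes were members, a count of 0 in lists of this size is near that share. By symbol, 2 members were solute carriers (6.67%, against 1.25% of the 5180 genes), 1 was an ion channel (3.33% against 0.830%), and none was a zinc finger gene (2.57% of the 5180 genes). With so few members these shares are a description only.

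RefSeq held 26 promoter windows for 17 of the members. Their median GC content was 55%, compared with 52.7% of 32851 windows in all. On either strand, the E box CAGCTG was found in 11.5% of the members' windows and 16.3% of all windows, the MEF2-like CTANNNNTAG in 7.69% and 3.69%, and the nuclear receptor core AGGTCA in 15.4% and 16.3%. TATAAA was found in 11.5% and 13.6%, the RFX core GTTGCC in 15.4% and 12.5%, and the glucocorticoid receptor core AGAACA in 19.2% and 19.0%. Windows of 1 gene can overlap, and a match to these letters describes the sequence and not a bound site. The windows of Mia2 start at 59095341, 59129498 and 59131231 on chromosome 12, a longer span than the gene counted on mm9. Some of them may therefore not belong to the gene counted, and the window at 59129498 held a CTANNNNTAG match.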

How the data were processed

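RNA of handpicked cells was amplified as cDNA by the SPIA method and sequenced in pairs. The authors trimmed adapters, mapped reads to mm9 with STAR and BWA, called bases with CASAVA 1.7 and counted reads with HTSeq. They deposited raw counts per gene symbol, not normalized, with 5 totals of reads not assigned, which were left out of library sizes. Files were matched to libraries by the constant ratio (coefficient of variation at most 1%) of counts of at least 10 to the study's expression columns, which gave the library in each file's name.

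The members were chosen by CPM (at least 10 in both OHC (P22) libraries, ratio of at least 5). The members and lists were chosen with earlier results of these data known. Named members were those in a list, the 15 highest per exon kb, the 15 highest ratios, up to 5 smallest adjusted p per comparison and those nearest the ratio of 5. The other 4 members, host genes, copies and relatives were named after their values were seen. edgeR 4.0.16 (R 4.3.3, TMM, filterByExpr) tested 16891 genes, with all 30 members among them, in 1 fit of 10 libraries. The SE is the log2 fold change divided by the square root of F. Against a group without counts, the fold uses 3 counts in each of its libraries. Alternatives used DESeq2 1.42.0, limma 3.58.1 with voom, no filter, other libraries and other thresholds. On counts simulated with known changes, edgeR recovered a minority of the changed genes and most DESeq2 calls were genes left unchanged. Exons and coordinates were taken from GENCODE M1 (mm9), copies were sought with BLAST 2.17.0, and promoters are of GRCm38.p6. Python 3.11.15 and matplotlib 3.10.9 were used.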

Additional observations from a re-analysis of the deposited data

How the results depend on the processing

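The members were 36 at a minimum of 5 CPM, 24 at 20 CPM, 67 at a ratio of 3, 11 at a ratio of 10 and 37 with TMM-scaled CPM, 27 of them shared. Leaving out 1 library gave 31 to 171, with 171 and 103 when an OHC (P22) library was left out. The calls rest on the spread of 2 libraries per type. DESeq2 gave 11 members higher and 1 lower for OHCs (P7) against SCs, 6 and 3 for cHCs against SCs, 5 and 1 for IHCs against SCs, and 5 and 0 for OHCs (P7) against cHCs. Without the filter there were 8 and 1, 5 and 3, 4 and 2, and 5 and 0, and limma-voom gave 6 and 0, 2 and 1, 1 and 0, and 1 and 0. With the 8 libraries other than OHCs (P22) there were 1 and 0, 1 and 0, 1 and 0, and 0 and 0. Taking each record's own attached file, no member was called in any comparison, none had both OHC (P7) libraries above the other 6, and Ephb4 and Elovl2 in cHCs against SCs and Crip3 in OHCs (P7) against cHCs turned direction, with log2 fold changes of 1.34, -5.64 and -1.61. This setting was tried because those files hold other libraries, as the constant ratios show. The cause of the other changes was not tested.

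Leaving out 1 library in turn gave 1 to 8 members higher and 0 to 0 lower in OHCs (P7) than in SCs, 1 to 2 higher and 0 to 2 lower in cHCs than in SCs, 1 to 4 higher and 0 to 0 lower in IHCs than in SCs, and 1 to 4 higher and 0 to 0 lower in OHCs (P7) than in cHCs. Both OHC (P7) libraries were above the others for 9 to 13 members, a count whose alternatives were chosen after seeing the data. No paired analysis was possible because the cell types share no replicate number.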
